A study of Mus musculus with 9 samples.

Results

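Integrins, laminins and the proteins that hold the basement membrane together were followed here as mRNA in primary mouse skin fibroblasts. The set was every protein-coding mouse gene whose symbol begins with Itga or Itgb, every laminin chain gene, and Nid1, Nid2, Hspg2, Agrn and Dag1. That rule, matched on Ensembl identifiers without version, gave 47 of the 55401 genes in the deposited table, and 41 of them reached 10 normalized counts in at least 3 of the 9 libraries and were tested. The cells were wild-type fibroblasts grown from skin pieces of new-born mice in DMEM with 10% FBS. There were 3 groups of 3 libraries. The lipid-depleted TCM group received tumor cell-conditioned medium (TCM) that had been treated with the Cleanascite reagent. The TCM group received the same kind of medium untreated. The third group is labelled control, and its medium, the length of exposure and whether replicates came from separate mice or cultures are not stated in the labels. The p-values therefore measure only the spread between these libraries, which may be technical. TCM was made by keeping cells of YUMM1.7, a mouse melanoma line, in DMEM with 10% FBS for 24 h. It stands for medium conditioned by 1 cultured tumor line and not for a tumor.

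Each integrin is a receptor made of an alpha and a beta chain, and the pair decides which matrix protein it binds: collagens, fibronectin and other proteins with an RGD motif, or laminins. Each laminin is a trimer of an alpha, a beta and a gamma chain that polymerizes on the cell surface. Nidogens and the proteoglycan perlecan tie this laminin sheet to collagen IV, agrin binds laminin to cells, and dystroglycan is a laminin receptor outside the integrin family. Dermal fibroblasts are known for the collagen and fibronectin receptors, while the hemidesmosome receptor and the laminin it binds belong to the epidermis above them.

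Values are normalized counts: the authors' number of reads per gene, scaled by 1 size factor for each library. Recovered reads ran between 51015024 and 64965906 per library, so the counts behind most members are large beside their counting error. The fibroblast markers Col1a1, Col1a2, Pdgfra and Thy1 were high in all 9 libraries, and none of the 9 markers on the fibroblast list was at 0. Lum was lower, from 198 to 372. These markers were not level between groups: 4 were called higher and 3 lower in TCM against control. The log2 changes were -1.78 for Col1a1, -1.08 for Col1a2, 1.44 for Pdgfra and 0.38 for Thy1. Among leukocyte markers Cd3e was at 0 in every library and Ptprc did not exceed 3.19. The myeloid markers were mixed. Adgre1 did not exceed 3.31, Cx3cr1 3.85, S100a8 2.19 and Spi1 1.01 in any library. Lyz2, Cd68 and Csf1r were present. Lyz2 had means of 365 in lipid-depleted TCM, 127 in TCM and 204 in control. Cd68 had 52.8 in lipid-depleted TCM, 92.1 in TCM and 43.3 in control. Csf1r had 11.8 in lipid-depleted TCM, 16.5 in TCM and 78.9 in control. The keratinocyte marker Krt15 did not exceed 4.63, Perp averaged 30.0 in lipid-depleted TCM, 16.2 in TCM and 51.2 in control, and Krt10 averaged 33.8 in lipid-depleted TCM, 45.2 in TCM and 45.3 in control. Replicates in TCM differed more from each other than in the other groups: the chi-square per degree of freedom between replicate pairs ran from 14.8 to 35.8 in TCM, against 3.28 to 7.61 in lipid-depleted TCM and 2.38 to 6.45 in control. Mitochondrial genes took 1.85% to 2.15% of counts in lipid-depleted TCM, 2.69% to 3.16% in TCM and 1.78% to 1.87% in control. Markers of melanocytes and melanoma summed to 1002 to 1121 normalized counts in lipid-depleted TCM, 880.3 to 955 in TCM and 757 to 863 in control. Mitf made up most of that sum, with means of 716 in lipid-depleted TCM, 604 in TCM and 511 in control. The melanocyte marker Mlana had 29.8, 37.5 and 29.3 normalized counts in lipid-depleted TCM, 0.951, 2.84 and 6.74 in TCM, and 5.31, 2.32 and 4.37 in control. It was higher in lipid-depleted TCM than in either other group, with a log2 change of 3.09 (limma adjusted p = 0.0003) against TCM and 2.77 (limma adjusted p = 0.00039) against control. The other markers of this list did not share a change of that size. In lipid-depleted TCM against TCM, Mitf was higher by a log2 change of 0.24 (limma adjusted p = 0.015) and Sox10 lower by -0.62 (limma adjusted p = 0.0084). Dct, Pmel and Tyrp1 were not called there or in lipid-depleted TCM against control. The part of such cells in the results was not tested. Endothelial markers summed to 218 to 226 in lipid-depleted TCM, 194 to 204 in TCM and 209 to 242 in control, and Schwann cell markers to 1167 to 1215 in lipid-depleted TCM, 967 to 1204 in TCM and 844 to 865 in control. In bulk RNA, fewer cells of a type and less RNA per cell cannot be told apart.

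Most of the adhesion receptors fell in TCM against control, while 4 of the 5 laminin alpha chains rose. Changes are differences of mean log2(normalized count + 1), which understates the change of scarce genes. Of the 41 members tested, 36 changed (limma, adjusted p below 0.05 over all 16950 genes tested): 14 rose and 22 fell. Across all genes 60.5% were called, 29.5% higher and 31.0% lower. The median log2 change was -0.48 for the members and -0.0022 for all genes. A change of at least 2-fold was called for 4 members upward and 11 downward, where 5.26% of all genes were called upward by that much and 8.24% downward. When libraries were scaled to the same total instead of by size factors, the median of all genes was 0.15 both in lipid-depleted TCM against control and in TCM against control. In TCM against control 66.3% of all calls were then higher, against 48.7% with size factors, and the members split into 15 higher and 21 lower. In lipid-depleted TCM against control the share was 65.6%, against 49.0% with size factors, and the members split into 18 higher and 17 lower.

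Lipid-depleted TCM set against untreated TCM moved 23 of the 41 members, 18 higher and 5 lower, at a background of 45.2% called, 22.7% higher and 22.5% lower. The median member changed by 0.12 on the log2 scale, beside 0.01 for all genes, and 5 members moved by at least 2-fold, where 6.08% of all genes did. Itgbl1, Itgb8, Itga8 and Lama1 were higher (background 3.12%) and Itgb7 was lower (background 2.96%). Lipid-depleted TCM against control gave 36 calls, 17 higher and 19 lower, at a background of 60.0% called, 29.4% higher and 30.6% lower. Of these 36, 14 moved by at least 2-fold, 4 higher and 10 lower, where 13.9% of all genes did, 5.98% higher and 7.90% lower. The libraries of the compared groups did not overlap for 24 members in lipid-depleted TCM against TCM (background 52.4%), 37 in lipid-depleted TCM against control (background 71.2%) and 37 in TCM against control (background 63.9%). Every group stands in 2 of the 3 comparisons, so their calls share libraries.

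**Figure D1:**
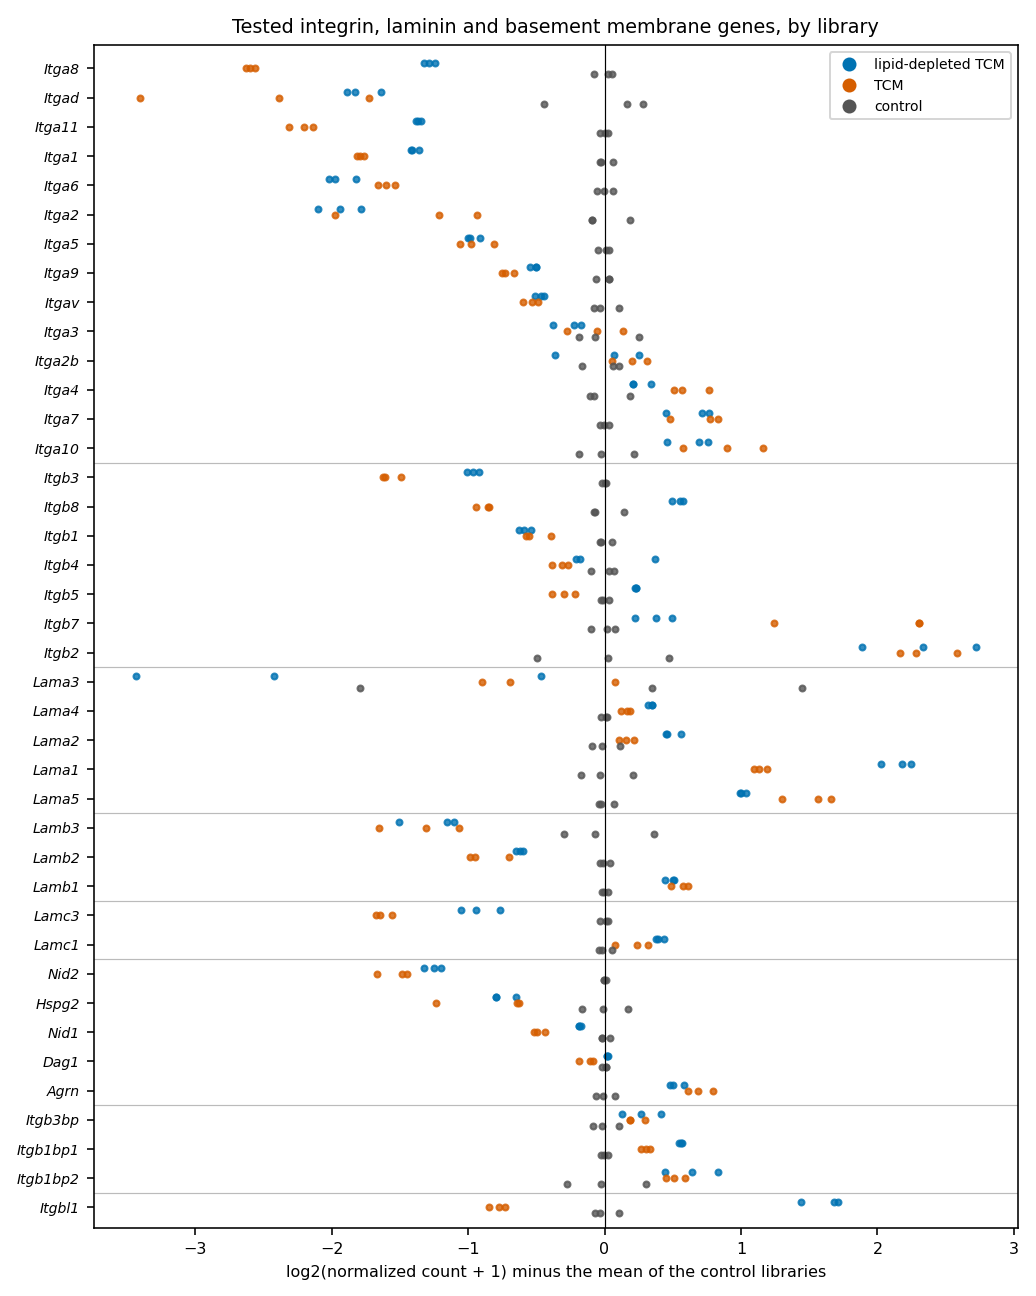
Tested members in every library, as log2(normalized count + 1) minus the mean of the 3 control libraries (horizontal axis); rows are genes grouped by role, from integrin alpha chains at the top to Itgbl1 at the bottom, and each point is 1 library. Itga8 and Itga11 in TCM lie more than 2 units left of control with lipid-depleted TCM between them, while Lama1 in lipid-depleted TCM lies about 2 units to the right of it.

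Of the 4 collagen-binding alpha chains, 3 fell in TCM against control and 1 rose. Itga11 (ENSMUSG00000032243.8, GRCm38 chr9:62677826-62783982, plus strand), the alpha chain of the fibrillar collagen receptor α11β1 of fibroblasts, had 27439.9, 27171 and 27947 normalized counts in lipid-depleted TCM, 14271, 15371 and 16111 in TCM, and 69426, 71262 and 72146 in control. The 3 groups did not overlap, with TCM lowest. Its log2 change was -2.22 (SE 0.05, limma adjusted p = 1.4e-12) in TCM against control, a 4.66-fold fall. In lipid-depleted TCM it was 1.81-fold above TCM, a log2 change of 0.85 (SE 0.05, limma adjusted p = 2.3e-08), and 2.58-fold below control.

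Itga1 (ENSMUSG00000042284.10, chr13:114953096-115101964, minus strand), the alpha chain of the collagen receptor α1β1, had 1900.5, 1891 and 1974 normalized counts in lipid-depleted TCM, 1458, 1490.1 and 1439 in TCM, and 4965, 4946 and 5287 in control. It followed the same order as Itga11, with no overlap between groups. The change was -1.79 (SE 0.05, limma adjusted p = 8.3e-12) in TCM against control, 0.39 (limma adjusted p = 2.2e-05) in lipid-depleted TCM against TCM and -1.40 (limma adjusted p = 6.9e-11) in lipid-depleted TCM against control. Itga2, of the platelet and epithelial collagen receptor α2β1, was scarce, with 9.93, 11.2 and 8.79 in lipid-depleted TCM, 20.9, 17.0 and 9.63 in TCM and 46.7, 38.2 and 38.3 in control. It was lower than control in both treated groups, by a log2 change of -1.94 (limma adjusted p = 0.00012) in lipid-depleted TCM and -1.38 (limma adjusted p = 0.0017) in TCM. Itga10, the chain of the collagen receptor known from chondrocytes, went the other way, with mean normalized counts of 135 ± 14.7 in lipid-depleted TCM, 161 ± 32.6 in TCM and 86.6 ± 12.3 in control (SD, n = 3): it rose in TCM against control by a log2 change of 0.88 (limma adjusted p = 0.00058). A predicted gene on the same strand, Gm42957, shares 33.5% of the exon bases of Itga10, so its counts are uncertain.

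Of the RGD receptors, Itga8 moved far more than Itga5 and Itgav. Itga8 (ENSMUSG00000026768.10, chr2:12106632-12301922, minus strand), the alpha chain of α8β1, a receptor for nephronectin and fibronectin found on fibroblasts, pericytes and smooth muscle, had 1574, 1608 and 1659 normalized counts in lipid-depleted TCM, 648, 666 and 636 in TCM, and 4002, 3724 and 4075 in control. All 9 values separated by group. Itga8 fell 6.04-fold in TCM against control, a log2 change of -2.59 (SE 0.05, limma adjusted p = 1e-12). It was 2.48-fold higher in lipid-depleted TCM than in TCM, a log2 change of 1.31 (SE 0.05, limma adjusted p = 2e-09), and still 2.44-fold below control. Markers of pericytes and smooth muscle moved the same way: of 8 tested, 1 was higher and 7 were lower in TCM against control, 6 were higher and 0 lower in lipid-depleted TCM against TCM, and the summed list ran from 18487 to 18661 in lipid-depleted TCM, 12901 to 14595 in TCM and 35315 to 37358 in control. The pericyte marker Higd1b was at 0 in all libraries. Rgs5 averaged 101 in lipid-depleted TCM, 33.3 in TCM and 802 in control. Kcnj8 averaged 19.6 in lipid-depleted TCM, 3.49 in TCM and 82.5 in control. Abcc9 averaged 82.8 in lipid-depleted TCM, 9.84 in TCM and 165 in control. Des, the marker that rose in TCM against control, averaged 295 in lipid-depleted TCM, 251 in TCM and 176 in control. The part of such cells in the result was not tested.

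Itga5 (ENSMUSG00000000555.8, chr15:103344286-103366763, minus strand), the alpha chain of the fibronectin receptor α5β1, had 13694, 13864 and 14532 normalized counts in lipid-depleted TCM, 13925, 13185 and 15606 in TCM, and 26527, 27695 and 28081 in control. Both treated groups lay at about the same level, below every control library. Itga5 fell by a log2 change of -0.95 (SE 0.06, limma adjusted p = 1.8e-08) in TCM and by a log2 change of -0.97 (limma adjusted p = 1.4e-08) in lipid-depleted TCM against control. Lipid-depleted TCM minus TCM was -0.02 with a 95% interval of -0.14 to 0.11, and the groups overlapped.

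Itgav (ENSMUSG00000027087.11, chr2:83724397-83806916, plus strand), which pairs with several beta chains to bind vitronectin, fibronectin and latent TGF-beta, had 16918, 16139.7 and 16658 normalized counts in lipid-depleted TCM, 15927, 16365 and 15221 in TCM, and 22464, 21827 and 24749.7 in control. Its pattern was that of Itga5 at a smaller size, -0.54 (SE 0.05, limma adjusted p = 1.3e-06) in TCM against control and -0.47 (limma adjusted p = 4.1e-06) in lipid-depleted TCM against control. Between the 2 conditioned media the difference was 0.07, with an interval of -0.04 to 0.18. For both Itga5 and Itgav the lipid-depleted TCM and TCM libraries overlapped, which those of Itga8 did not.

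The laminin-binding alpha chains did not move together. Itga6 (ENSMUSG00000027111.16, chr2:71745616-71858416, plus strand), the alpha chain of α6β1 and of the hemidesmosome receptor α6β4, had 621, 641 and 711 normalized counts in lipid-depleted TCM, 832, 799 and 871 in TCM, and 2511, 2431 and 2628 in control. Here lipid-depleted TCM and not TCM was lowest. Itga6 fell by a log2 change of -1.60 (SE 0.07, limma adjusted p = 5e-10) in TCM and by a log2 change of -1.94 (SE 0.07, limma adjusted p = 8.2e-11) in lipid-depleted TCM against control, and lipid-depleted TCM was below TCM by a log2 change of -0.34 (limma adjusted p = 0.00096). Itga7, whose product pairs with β1 as the laminin receptor of muscle, rose: means were 706 ± 80.5 in lipid-depleted TCM, 733 ± 91.1 in TCM and 450.0 ± 10.7 in control, 0.70 (limma adjusted p = 7.1e-05) for TCM against control. Itga3, the α3β1 receptor chain of epithelia, stayed between 103 and 161 in all 9 libraries and was called in no comparison.

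Itga4 and Itga9 encode the alpha chains of VCAM-1, fibronectin and tenascin receptors. They moved in opposite directions. Itga4 had 398, 363 and 362 normalized counts in lipid-depleted TCM, 447, 535 and 465 in TCM, and 291, 298 and 357 in control, and rose by a log2 change of 0.61 (limma adjusted p = 0.00018) in TCM against control. It was lower in lipid-depleted TCM than in TCM, -0.36 (limma adjusted p = 0.011). Its excess over control in lipid-depleted TCM, 0.25 (limma adjusted p = 0.046), was lost with DESeq2, without the filter and when single libraries were left out. Itga9 averaged 1744 ± 28.0 in lipid-depleted TCM, 1521 ± 45.9 in TCM and 2498 ± 93.2 in control, and fell in TCM by a log2 change of -0.72 (limma adjusted p = 6.3e-08).

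The leukocyte and platelet alpha chains were scarce. Itgad (ENSMUSG00000070369.13, chr7:128154376-128223816) had 13.2, 15.2 and 12.7 normalized counts in lipid-depleted TCM, 14.3, 3.78 and 8.67 in TCM, and 60.6, 55.6 and 36.1 in control. It fell by a log2 change of -2.51 (SE 0.39, limma adjusted p = 0.00012) in TCM against control. Its 70 bases of overlap with Cox6a2 on the opposite strand make it uncertain. The pseudogene Gm17831 on the same strand, at 0 counts, also shares 7.32% of its exon bases. Itga2b, the platelet chain, ranged from 101 to 162 and was called in no comparison. Itgal did not exceed 13.9, Itgae 6.74, Itgax 7.66 and Itgam 2.93 normalized counts, and these 4 genes were not tested. The filter boundary ran close to 3 members: Lama3 just passed, and Itgal and Itgb6 each reached 10 counts in 2 libraries and were left out.

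Counted over the family, 14 of the 18 alpha chain genes were tested. In TCM against control 3 rose and 9 fell, in lipid-depleted TCM against TCM 4 rose and 2 fell, and in lipid-depleted TCM against control 3 rose and 9 fell. The 2 that were lower in lipid-depleted TCM than in TCM were Itga4 and Itga6. Of the alpha chains tested, 85.7% were called in TCM against control, beside 60.5% of all genes. In lipid-depleted TCM against control 85.7% were called, beside 60.0% of all genes. In lipid-depleted TCM against TCM the share was 42.9%, no higher than the 45.2% of all genes.

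**Figure D2:**
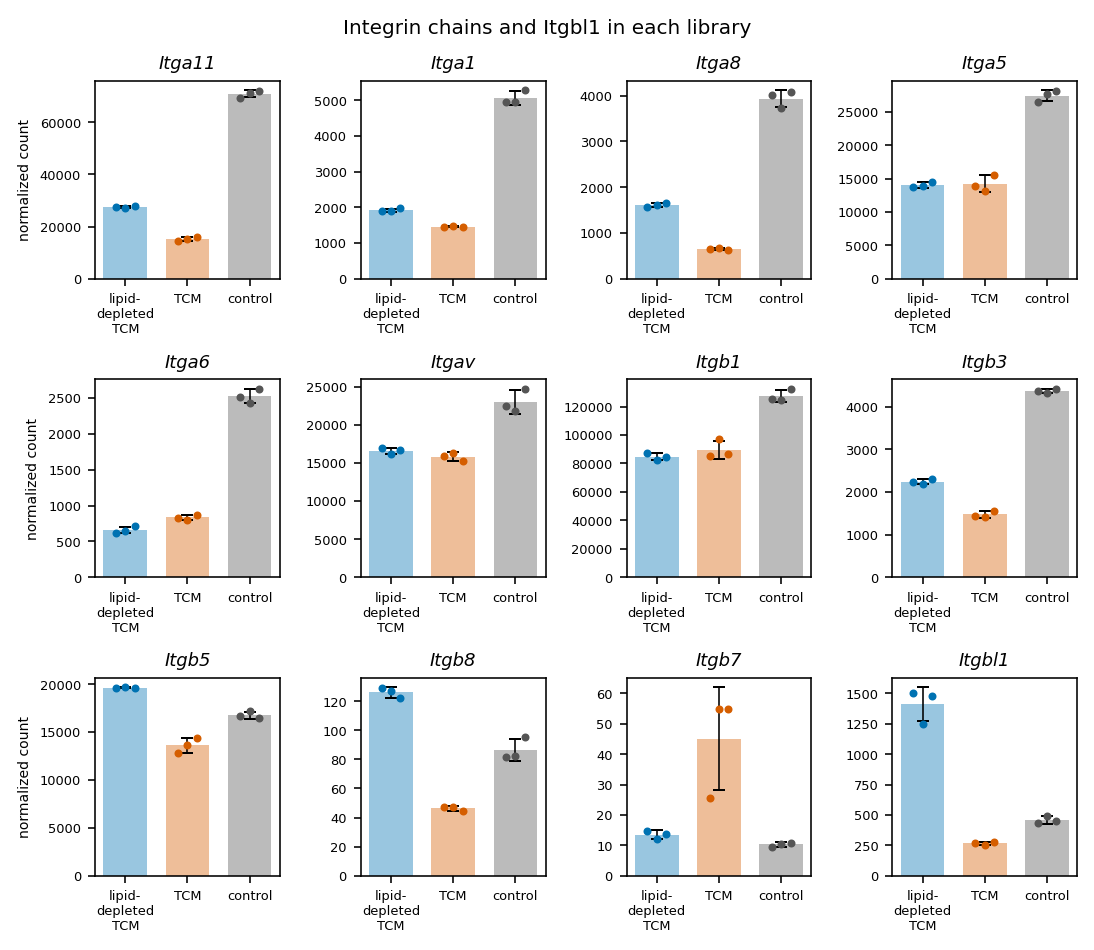
Normalized counts of 11 integrin chains and Itgbl1 (vertical axes, linear and starting at 0); bars are group means, error bars SD over 3 libraries, and points single libraries, with lipid-depleted TCM left, TCM in the middle and control right. Itga11, Itga8 and Itgb3 stand lowest in TCM and intermediate in lipid-depleted TCM, Itga5 and Itgav lie near each other in both treated groups, and Itgb7 stands highest in TCM and Itgbl1 in lipid-depleted TCM.

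Among the beta chains, the common partner Itgb1 fell modestly and the αv partners went separate ways. Itgb1 (ENSMUSG00000025809.15, chr8:128685654-128733200, plus strand), the partner of most alpha chains above, had 87591, 82410.1 and 84624 normalized counts in lipid-depleted TCM, 85326, 96927 and 86998 in TCM, and 125179, 124658 and 132557 in control. Every control library was above all 6 others. The change was -0.51 (SE 0.05, limma adjusted p = 4.1e-06) in TCM and -0.59 (limma adjusted p = 1e-06) in lipid-depleted TCM against control; between lipid-depleted TCM and TCM it was -0.08, with an interval of -0.20 to 0.04.

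Itgb3 (ENSMUSG00000020689.4, chr11:104608000-104670476, plus strand), whose αvβ3 receptor binds vitronectin, fibrinogen and osteopontin, had 2248, 2181 and 2310.0 normalized counts in lipid-depleted TCM, 1437, 1424 and 1559.7 in TCM, and 4384, 4337 and 4426 in control. The groups were separate, in the order of Itga11 and Itga8. Itgb3 fell 2.97-fold in TCM against control, a log2 change of -1.57 (SE 0.05, limma adjusted p = 4.2e-11), and was 1.52-fold higher in lipid-depleted TCM than in TCM, a log2 change of 0.61 (SE 0.05, limma adjusted p = 7.9e-07). Itgb5, the chain of the vitronectin receptor αvβ5, averaged 19632 ± 45.9 in lipid-depleted TCM, 13631 ± 799 in TCM and 16776 ± 358 in control. It was lower in TCM than in control by a log2 change of -0.30 (limma adjusted p = 8.3e-05), or -0.14 when libraries were scaled to the same total, and higher in lipid-depleted TCM than in either, 0.53 (limma adjusted p = 1.3e-06) against TCM and 0.23 (limma adjusted p = 0.00078) against control.

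Itgb8, which with αv binds and activates latent TGF-beta, was scarce, at 129, 127 and 122 normalized counts in lipid-depleted TCM, 47.5, 47.3 and 44.3 in TCM, and 81.8, 82.2 and 95.1 in control. The lipid-depleted TCM libraries were highest and the TCM libraries lowest, without overlap. It fell by a log2 change of -0.88 (SE 0.14, limma adjusted p = 0.0001) in TCM against control. It was 2.68-fold higher in lipid-depleted TCM than in TCM, a log2 change of 1.42 (SE 0.14, limma adjusted p = 3.4e-06), and above control by a log2 change of 0.54 (limma adjusted p = 0.0039).

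The beta chains of leukocyte integrins were scarce. Itgb7 had 14.9, 12.2 and 13.7 normalized counts in lipid-depleted TCM, 25.7, 54.9 and 54.9 in TCM, and 9.56, 10.4 and 10.9 in control, so TCM was above both other groups although TCM 1 held less than the other 2 TCM libraries. It rose in TCM against control by a log2 change of 1.95 (SE 0.32, limma adjusted p = 0.00016), or 2.31 without TCM 1, and was lower in lipid-depleted TCM than in TCM by a log2 change of -1.59 (SE 0.32, limma adjusted p = 0.0013), or -1.94 without TCM 1. Itgb2 had 36.4, 26.4 and 47.9 normalized counts in lipid-depleted TCM, 32.3, 35.0 and 43.3 in TCM, and 4.25, 9.26 and 6.56 in control, a rise with a log2 change of 2.34 (SE 0.32, limma adjusted p = 3.3e-05) in TCM and 2.31 (limma adjusted p = 3.6e-05) in lipid-depleted TCM against control. Of 10 leukocyte markers, 7 were under 10 counts in every library, and the summed list was 427 to 442 in lipid-depleted TCM, 223 to 264 in TCM and 287 to 376 in control. Lyz2 made up most of that sum and ran opposite to Itgb7, with a log2 change of -0.67 (limma adjusted p = 0.00048) in TCM against control and 1.51 (limma adjusted p = 9.3e-07) in lipid-depleted TCM against TCM. Cd68 had the same signs as Itgb7: it rose in TCM against control by a log2 change of 1.09 (limma adjusted p = 0.00074) and was lower in lipid-depleted TCM than in TCM by a log2 change of -0.79 (limma adjusted p = 0.0094). Csf1r fell against control in both treated groups, by a log2 change of -2.68 (limma adjusted p = 2.6e-05) in lipid-depleted TCM and -2.21 (limma adjusted p = 0.00014) in TCM. The part of leukocytes in these results was not tested. Itgb4, the hemidesmosome chain, lay between 71.2 and 121 and was called in no comparison, Itgb6 did not exceed 14.2 and Itgb2l 1.09. Of the 7 beta chains tested, 2 rose and 4 fell in TCM against control, and 3 rose and 1 fell in lipid-depleted TCM against TCM. In lipid-depleted TCM against control 3 rose and 2 fell. Of these 7 chains, 85.7% were called in TCM against control, beside 60.5% of all genes. The share was 57.1% in lipid-depleted TCM against TCM, beside 45.2% of all genes. It was 71.4% in lipid-depleted TCM against control, beside 60.0% of all genes.

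The member that differed most between the conditioned media was Itgbl1 (ENSMUSG00000032925.16, chr14:123659971-123975618, plus strand), which encodes a secreted protein with repeats like those of integrin beta chains. It had 1507, 1250.1 and 1476 normalized counts in lipid-depleted TCM, 269, 255 and 277 in TCM, and 437, 496 and 448 in control. Every lipid-depleted TCM library was above every other library, and TCM was lowest. Itgbl1 fell in TCM against control by a log2 change of -0.78 (SE 0.09, limma adjusted p = 5.5e-06), was 5.25-fold higher in lipid-depleted TCM than in TCM, a log2 change of 2.39 (SE 0.09, limma adjusted p = 8.2e-10), and 3.06-fold higher than in control, a log2 change of 1.61 (SE 0.09, limma adjusted p = 5.7e-09).

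The name rule also took in 3 genes that encode no integrin chain. Itgb1bp1, which encodes ICAP-1, a protein that binds the β1 tail and competes with activators, averaged 1822 ± 13.2 in lipid-depleted TCM, 1521 ± 33.4 in TCM and 1235 ± 21.9 in control. It rose in all 3 comparisons, by a log2 change of 0.30 (limma adjusted p = 0.00012) in TCM against control, 0.26 (limma adjusted p = 0.00066) in lipid-depleted TCM against TCM and 0.56 (limma adjusted p = 4.2e-07) against control; its exons overlap Asap2 and Cpsf3 on the opposite strand. Itgb1bp2, the muscle protein melusin, rose in TCM by a log2 change of 0.52 (limma adjusted p = 0.032) and in lipid-depleted TCM by a log2 change of 0.64 (limma adjusted p = 0.011) against control, at no more than 74.2 counts. Itgb3bp, a kinetochore protein also known as CENP-R, was higher in lipid-depleted TCM than in control by a log2 change of 0.27 (limma adjusted p = 0.03). In TCM against control its log2 change of 0.22 (limma adjusted p = 0.063) missed the threshold, but it was called with TMM scaling (log2 change 0.26, limma adjusted p = 0.037) and with the same library total (log2 change 0.38, limma adjusted p = 0.0048). The call of Itgb1bp2 in TCM and that of Itgb3bp were lost when any of several single libraries was left out.

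On the ligand side, 4 of the 5 laminin alpha chains rose in TCM against control, as did Lamb1 and Lamc1, while Lamb2, Lamb3 and Lamc3 were among those that fell. Of 11 laminin genes, all tested, 6 rose and 4 fell in TCM against control, 6 rose and 1 fell in lipid-depleted TCM against TCM, and 6 rose and 5 fell in lipid-depleted TCM against control. Of the 5 alpha chains, 4 rose and 0 fell in TCM against control, and 3 rose and 1 fell in lipid-depleted TCM against TCM. In lipid-depleted TCM against control 4 rose and 1 fell. Of the 11 laminin genes, 90.9% were called in TCM against control, beside 60.5% of all genes. The share was 63.6% in lipid-depleted TCM against TCM, beside 45.2% of all genes. It was 100% in lipid-depleted TCM against control, beside 60.0% of all genes.

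Lama1 (ENSMUSG00000032796.8, chr17:67697259-67822647, plus strand), the alpha chain of the laminin of early embryonic basement membranes, had 2335, 2231 and 2003 normalized counts in lipid-depleted TCM, 1049.5, 1075 and 1119 in TCM, and 478, 434 and 568 in control. Lipid-depleted TCM was highest and control lowest, without overlap. Lama1 was higher in TCM than in control by a log2 change of 1.14 (SE 0.09, limma adjusted p = 2.7e-07), higher in lipid-depleted TCM than in TCM by a log2 change of 1.02 (SE 0.09, limma adjusted p = 1.9e-06), and 4.45-fold higher in lipid-depleted TCM than in control.

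Lama5 (ENSMUSG00000015647.9, chr2:180176373-180225859, minus strand), the alpha chain of the main laminins of adult epithelial and vascular basement membranes, had 1085, 1059 and 1055 normalized counts in lipid-depleted TCM, 1305, 1564 and 1673 in TCM, and 554, 513 and 521 in control. TCM was highest and control lowest. It rose 2.84-fold in TCM against control, a log2 change of 1.51 (SE 0.08, limma adjusted p = 7.2e-09). Unlike Lama1, it was lower in lipid-depleted TCM than in TCM, by a log2 change of -0.50 (SE 0.08, limma adjusted p = 0.00033), and 2.01-fold above control.

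Lama4 and Lama2, the alpha chains of mesenchymal laminins, moved by less. Lama4 averaged 23589.9 ± 244 in lipid-depleted TCM, 20837 ± 506 in TCM and 18666 ± 291 in control, and was higher in lipid-depleted TCM than in TCM by a log2 change of 0.18 (limma adjusted p = 0.0017) and in TCM than in control by a log2 change of 0.16 (limma adjusted p = 0.0024). Lama2, whose product is the laminin chain of muscle and nerve, averaged 7615 ± 331 in lipid-depleted TCM, 6059 ± 227 in TCM and 5435 ± 394 in control. Its rise in lipid-depleted TCM was 0.33 (limma adjusted p = 0.00042) over TCM and 0.49 (limma adjusted p = 7.8e-06) over control. The call of 0.16 (limma adjusted p = 0.027) for TCM against control came from groups that overlap and was lost when TCM 2, TCM 3, control 1 or control 2 was left out. Lama3, the epidermal chain, did not exceed 28.4 counts; its call in lipid-depleted TCM against control, -2.11 (limma adjusted p = 0.049), came from overlapping groups and was lost in 11 alternatives.

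The promoters of the members with the largest fall and the largest rise in TCM against control (leaving out members whose higher group averaged under 50) are shown to set their base composition side by side; this pair was chosen after the values were seen. Each is the 250 bases before the RefSeq start (GRCm38.p6, minus strand, written 5′ to 3′), at chr2:12301945-12302194 for Itga8 and chr2:180225860-180226109 for Lama5. Capitals mark the GC box GGGCGG or its reverse complement.
Itga8: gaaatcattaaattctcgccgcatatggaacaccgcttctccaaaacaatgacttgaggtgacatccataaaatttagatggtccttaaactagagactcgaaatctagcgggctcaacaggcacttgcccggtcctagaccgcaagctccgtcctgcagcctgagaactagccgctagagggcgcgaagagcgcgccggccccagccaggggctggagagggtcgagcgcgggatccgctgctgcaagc
Lama5: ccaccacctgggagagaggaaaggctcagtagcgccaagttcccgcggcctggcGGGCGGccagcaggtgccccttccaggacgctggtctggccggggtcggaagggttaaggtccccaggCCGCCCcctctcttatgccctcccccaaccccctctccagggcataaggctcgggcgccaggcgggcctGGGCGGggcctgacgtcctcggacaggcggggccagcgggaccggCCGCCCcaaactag
The Lama5 window was 72.4% G and C and held 4 GC boxes, and the Itga8 window was 56.4% G and C and held 0. Neither held the AP-1 motif TGANTCA or the TEAD motif GGAATG. Of 32851 mouse promoter windows of this length, searched on both strands, 32.7% held a GC box, 6.75% the AP-1 motif and 12.6% the TEAD motif. Of the 31 members with a window, 13 had a GC box, 1 the AP-1 motif and 4 the TEAD motif in at least 1 window. These 31 members had 36 windows, and a member with more windows had more chances of a match. The member counts are therefore not on the same footing as the shares of windows.

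**Figure D3:**
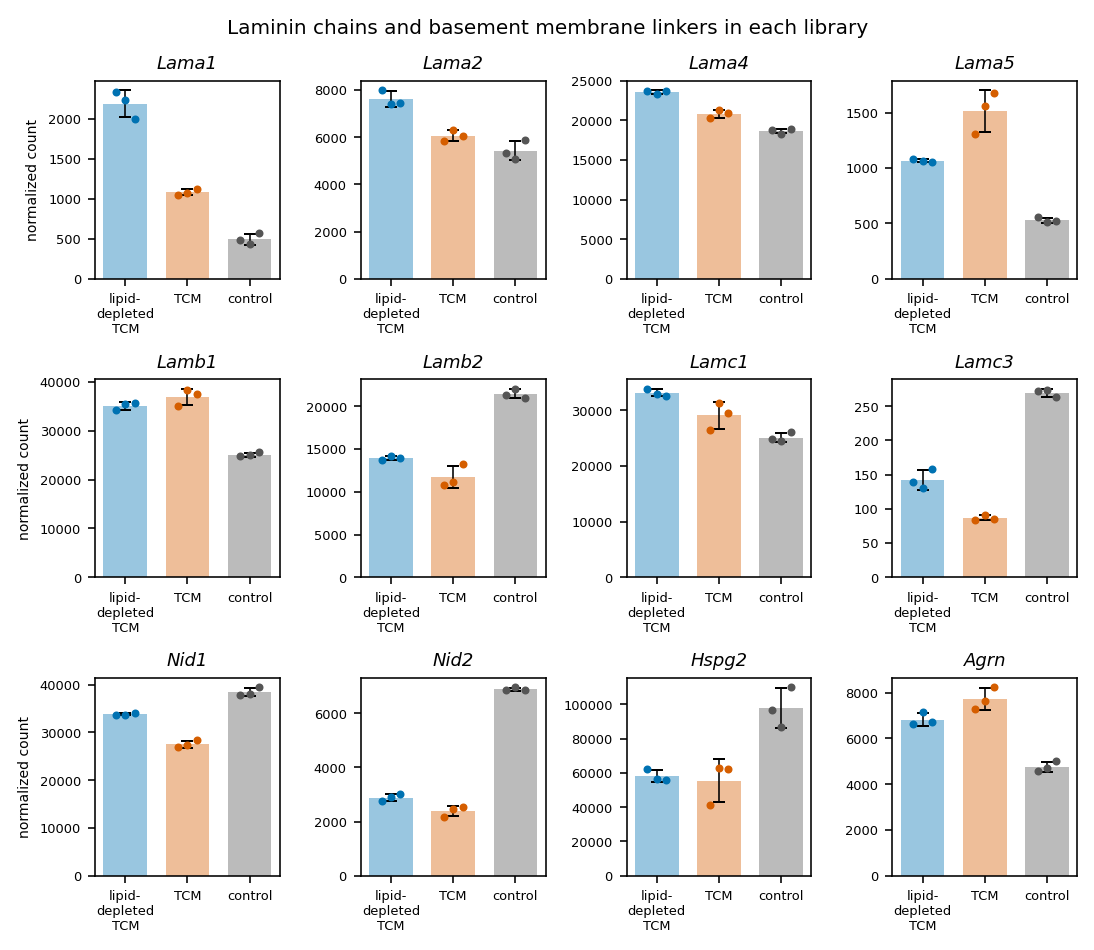
Normalized counts of 8 laminin chains and 4 linker genes (vertical axes, linear and starting at 0); bars are group means, error bars SD over 3 libraries, and points single libraries, with lipid-depleted TCM left, TCM in the middle and control right. Lama1 stands highest in lipid-depleted TCM, Lama5, Lamb1 and Agrn in TCM, and Lamb2, Lamc3, Nid2 and Hspg2 in control; the bar of Hspg2 in TCM includes 1 low library.

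Lamb1 and Lamc1 rose against control in both treated groups, and Lamb2, Lamb3 and Lamc3 fell. Lamb1 (ENSMUSG00000002900.17, chr12:31265234-31329644, plus strand), the beta chain of the embryonic and mesenchymal laminins, had 34245, 35514 and 35671 normalized counts in lipid-depleted TCM, 35133, 38339 and 37448 in TCM, and 24807, 25001 and 25574 in control. It was higher in TCM than in control by a log2 change of 0.56 (SE 0.04, limma adjusted p = 1.8e-07) and in lipid-depleted TCM than in control by a log2 change of 0.48 (limma adjusted p = 6.5e-07); lipid-depleted TCM minus TCM was -0.07 with an interval of -0.16 to 0.02, and was called only without TCM 1, at -0.11. Lamb2, the beta chain of synaptic, kidney and vascular laminins, went the other way, with means of 13936 ± 239.8 in lipid-depleted TCM, 11724 ± 1281 in TCM and 21468 ± 539.7 in control. It fell by a log2 change of -0.88 (SE 0.06, limma adjusted p = 9.1e-08) in TCM against control and was higher in lipid-depleted TCM than in TCM by a log2 change of 0.25 (limma adjusted p = 0.0052).

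Lamc1 (ENSMUSG00000026478.14, chr1:153218922-153332786, minus strand), the gamma chain of most laminins, had 33903, 32999 and 32666 normalized counts in lipid-depleted TCM, 26480.2, 31318 and 29616 in TCM, and 24815, 24416 and 26094 in control. It rose in TCM by a log2 change of 0.21 (limma adjusted p = 0.0057) and in lipid-depleted TCM by a log2 change of 0.40 (limma adjusted p = 4.4e-05) against control. The difference between lipid-depleted TCM and TCM, 0.19 (limma adjusted p = 0.015), was 0.12 without TCM 1, the lowest of its group, and was not called without lipid-depleted TCM 1. Lamb3, a beta chain of epidermal laminin, was scarce and lower than control in both treated groups, at 7.45, 10.1 and 9.77 in lipid-depleted TCM, 10.5, 6.62 and 8.67 in TCM and 29.7, 18.5 and 21.9 in control, with log2 changes of -1.25 for lipid-depleted TCM and -1.34 for TCM. Keratinocyte markers summed to 94.3 to 120 normalized counts in lipid-depleted TCM, 125 to 140 in TCM and 168 to 192 in control, with 4 of 10 under 10 counts in every library and 1 of the 5 tested lower in each treated group than in control; their part in the fall of Lamb3 and Itga6 was not tested.

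Lamc3, a further gamma chain, had 139.8, 129.8 and 158 normalized counts in lipid-depleted TCM, 83.7, 90.8 and 85.7 in TCM, and 272, 274 and 264 in control. Its order was that of Itga11, Itga8 and Itgb3, lowest in TCM. It fell by a log2 change of -1.63 (SE 0.11, limma adjusted p = 6.5e-08) in TCM against control and was higher in lipid-depleted TCM than in TCM by a log2 change of 0.71 (SE 0.11, limma adjusted p = 0.00024).

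Of the linkers, the nidogens and perlecan fell in TCM and agrin rose. Nid1 (ENSMUSG00000005397.8, chr13:13437551-13512269, plus strand), which bridges laminin gamma chains and collagen IV, had 33692, 33698 and 34046 normalized counts in lipid-depleted TCM, 26897, 27291 and 28329 in TCM, and 37856, 37953 and 39451 in control. The groups were separate. Nid1 fell by a log2 change of -0.48 (SE 0.04, limma adjusted p = 2.7e-07) in TCM against control and was above TCM in lipid-depleted TCM by a log2 change of 0.30 (limma adjusted p = 4.6e-05); its remaining deficit against control of -0.18 (limma adjusted p = 0.0011) was -0.04 when libraries were scaled to the same total. Nid2 (ENSMUSG00000021806.4, chr14:19751265-19811787, plus strand), the second nidogen, had 2754, 2901 and 3006 normalized counts in lipid-depleted TCM, 2163, 2464 and 2523 in TCM, and 6853, 6957 and 6858 in control. Its fall was larger, 2.90-fold in TCM against control or a log2 change of -1.53 (SE 0.06, limma adjusted p = 2.6e-10), with a difference of 0.28 (limma adjusted p = 0.0019) between lipid-depleted TCM and TCM. Rtraf on the opposite strand, at a mean of 6703 normalized counts, overlaps 8.45% of the exon bases of Nid2.

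Hspg2 (ENSMUSG00000028763.18, chr4:137468769-137570630, plus strand), the perlecan gene, had 62097, 56115 and 55966 normalized counts in lipid-depleted TCM, 41270.3, 63032 and 62293 in TCM, and 96445, 86987 and 109856 in control. TCM 1 lay below every lipid-depleted TCM library and the other 2 TCM libraries lay above them. Hspg2 was lower in TCM than in control by a log2 change of -0.84 (SE 0.14, limma adjusted p = 0.00016), or -0.64 without TCM 1, and lower in lipid-depleted TCM than in control by a log2 change of -0.75 (limma adjusted p = 0.00039). Between the conditioned media the difference was 0.09, with an interval of -0.20 to 0.38, and -0.11 without TCM 1.

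Agrn (ENSMUSG00000041936.18, chr4:156165290-156197488, minus strand), the agrin gene, had 6615, 7134 and 6715 normalized counts in lipid-depleted TCM, 7277, 7638 and 8229.8 in TCM, and 4556, 4714 and 5002 in control. TCM was highest and control lowest, as for Lama5. Agrn rose by a log2 change of 0.70 (SE 0.05, limma adjusted p = 2.3e-07) in TCM and 0.52 (limma adjusted p = 3.4e-06) in lipid-depleted TCM against control. It was lower in lipid-depleted TCM than in TCM by a log2 change of -0.18 (limma adjusted p = 0.019), a call lost when lipid-depleted TCM 1, lipid-depleted TCM 3 or TCM 3 was left out. Dag1 (ENSMUSG00000039952.15, chr9:108204634-108263958, minus strand), which encodes both dystroglycan subunits, had 14334, 14366 and 14444 normalized counts in lipid-depleted TCM, 12456, 13359 and 13143 in TCM, and 13973, 14271 and 14280.5 in control. Its changes were small: -0.13 (limma adjusted p = 0.013) in TCM against control, which turned to 0.03 when libraries were scaled to the same total, 0.15 (limma adjusted p = 0.0076) in lipid-depleted TCM against TCM, and 0.02 with an interval of -0.06 to 0.10 in lipid-depleted TCM against control.

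Levels of different chains were compared per kilobase of exon, as a share of their family in each library. Summed over all alpha chains, integrin mRNA was 10562 ± 188 normalized counts per kilobase in lipid-depleted TCM, 8002 ± 350 in TCM and 23103 ± 553 in control (SD, n = 3 each). Beta chains summed to 26747 ± 636 in lipid-depleted TCM, 26123 ± 1586 in TCM and 36726 ± 1019 in control. Laminin alpha chains summed to 2741 ± 45.1 in lipid-depleted TCM, 2343 ± 71.7 in TCM and 1978 ± 54.8 in control. On this scale total alpha integrin mRNA was lowest in TCM and total alpha laminin mRNA was lowest in control, with no overlap between groups in either.

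Itga11 was the most abundant alpha chain per kilobase in lipid-depleted TCM and in control. Of alpha chain mRNA it made up 50.8% ± 0.231 in lipid-depleted TCM, 37.1% ± 1.23 in TCM and 59.9% ± 0.404 in control. Itga5 made up 26.9% ± 0.432 in lipid-depleted TCM, 36.0% ± 1.79 in TCM and 24.1% ± 0.250 in control, and Itgav 14.6% ± 0.357 in lipid-depleted TCM, 18.5% ± 1.40 in TCM and 9.27% ± 0.464 in control. The collagen receptor chain thus held a smaller share in TCM, and the fibronectin and vitronectin receptor chains larger ones, although their counts were lower too. With the longest transcript as length, Itga11 held 32.2% and Itga5 33.8% in TCM, so the order of these neighbours in TCM depends on the length used. Among beta chains Itgb1 held 77.7% ± 0.530 in lipid-depleted TCM, 84.2% ± 1.11 in TCM and 85.0% ± 0.604 in control, and Itgb5 20.7% ± 0.509 in lipid-depleted TCM, 14.7% ± 1.02 in TCM and 12.9% ± 0.572 in control.

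Lama4 was the main laminin alpha chain, at 71.3% ± 0.901 in lipid-depleted TCM, 73.7% ± 0.544 in TCM and 78.2% ± 1.02 in control. Lama1 held 8.25% ± 0.565 in lipid-depleted TCM, 4.77% ± 0.125 in TCM and 2.57% ± 0.284 in control, and Lama5 3.42% ± 0.0175 in lipid-depleted TCM, 5.67% ± 0.569 in TCM and 2.35% ± 0.103 in control. The alpha chain mix thus tilted to Lama1 in lipid-depleted TCM and to Lama5 in TCM, while Lama4 stayed first in all 9 libraries. The beta chains shifted more: Lamb1 made up 60.7% ± 0.249 in lipid-depleted TCM, 66.0% ± 2.23 in TCM and 41.8% ± 0.882 in control. With the longest transcript as length the share of Lamb1 was 71.0% in lipid-depleted TCM, 75.4% in TCM and 53.2% in control, so which beta chain leads in control depends on the length while the shift between groups does not. Of gamma chain mRNA, Lamc1 held 99.1% ± 0.0847 in lipid-depleted TCM, 99.3% ± 0.0237 in TCM and 97.4% ± 0.106 in control.

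**Figure D4:**
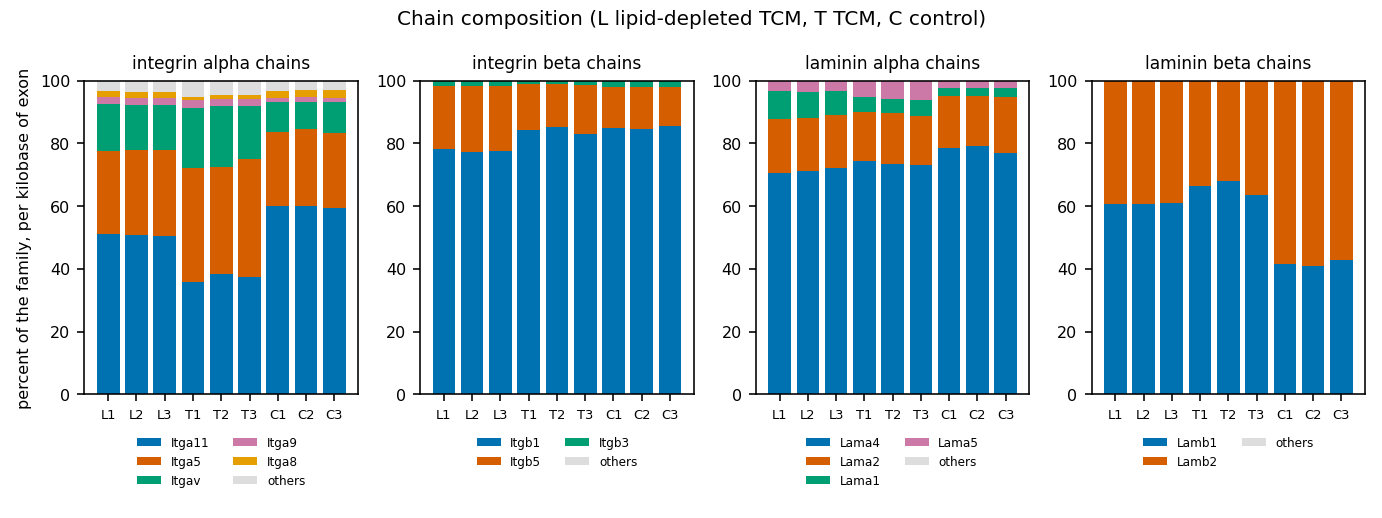
Share of each chain in its family (vertical axis, percent of the family's normalized counts per kilobase of exon) in each library (L lipid-depleted TCM, T TCM, C control, with replicate numbers); colors stand for genes. Itga11 shrinks and Itga5 and Itgav grow in the TCM bars, and Lamb1 averages 60.7% of laminin beta chain mRNA in lipid-depleted TCM, 66.0% in TCM and 41.8% in control.

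Genes that work with these receptors were read from 5 further lists. The integrin ligand list holds Col1a1, Col1a2 and Col3a1, which are also fibroblast markers. Of all genes, 29.5% were called higher and 31.0% lower in TCM against control. The shares were 22.7% and 22.5% in lipid-depleted TCM against TCM, and 29.4% and 30.6% in lipid-depleted TCM against control. The list of focal adhesion adaptors had 36 of 39 genes tested. It holds proteins that tie integrin tails to actin and also signaling and membrane proteins such as Src, Ptk2 and Cav1. In TCM against control 7 rose and 25 fell (median log2 change -0.65, beside -0.0022 for all genes). In lipid-depleted TCM 18 rose and 4 fell against TCM, and 7 rose and 23 fell against control. Kank4, of the talin-binding KANK family, had 67.8, 57.8 and 63.5 normalized counts in lipid-depleted TCM, 8.56, 0 and 11.6 in TCM, and 124, 108 and 114 in control. It was called lower in TCM than in control, with no overlap between the groups, and since TCM 2 is listed at 0 the size of its fitted change depends on the pseudocount. Lims2, which encodes PINCH-2 of the ILK complex, averaged 1009 in lipid-depleted TCM, 391 in TCM and 1717 in control and fell in TCM by a log2 change of -2.14 (limma adjusted p = 1.5e-09). Cav1, the caveolin-1 gene, averaged 15235 in lipid-depleted TCM, 18101 in TCM and 40469 in control. Tgfb1i1, which encodes Hic-5, averaged 6598 in lipid-depleted TCM, 5502 in TCM and 14718 in control. Both were lower than control in both treated groups. Zyx, the zyxin gene, was an exception at 20014 in lipid-depleted TCM, 27459.6 in TCM and 21382 in control: it rose in TCM by a log2 change of 0.35 (limma adjusted p = 0.0022) and was lower in lipid-depleted TCM than in TCM by a log2 change of -0.45 (limma adjusted p = 0.00065). Parvb, which encodes β-parvin, rose in both treated groups, by a log2 change of 0.97 (limma adjusted p = 1.1e-07) in lipid-depleted TCM and 0.87 (limma adjusted p = 3.5e-07) in TCM.

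Other basement membrane genes leaned the same way, with 29 of 31 tested. In TCM against control 3 rose and 22 fell (median -0.73), in lipid-depleted TCM against TCM 17 rose and 3 fell (median 0.34), and in lipid-depleted TCM against control 5 rose and 16 fell. Fras1, of the Fraser complex under the epidermis, averaged 150.0 in lipid-depleted TCM, 108 in TCM and 905 in control, a fall with a log2 change of -3.06 (limma adjusted p = 2.4e-09) in TCM. Hmcn1, the hemicentin-1 gene, averaged 903 in lipid-depleted TCM, 414 in TCM and 3152 in control, a fall with a log2 change of -2.91 (limma adjusted p = 3.1e-10). Smoc2, which encodes a secreted calcium-binding matricellular protein, and Egfl6, whose product binds α8β1, were higher in lipid-depleted TCM than in TCM, with log2 changes of 2.16 for Smoc2 and 1.67 for Egfl6. Col18a1, the source of endostatin, was an exception, with 16734 in lipid-depleted TCM, 24917 in TCM and 9887 in control and a rise with a log2 change of 1.33 (limma adjusted p = 1.5e-09) in TCM. Col15a1 was lower in lipid-depleted TCM than in either other group, at 2167 in lipid-depleted TCM, 3377 in TCM and 10829 in control.

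Integrin ligands other than laminins had 26 of 32 genes tested, of which 6 rose and 17 fell in TCM against control (median -0.62), 11 rose and 5 fell in lipid-depleted TCM against TCM, and 5 rose and 14 fell in lipid-depleted TCM against control, or 9 and 11 with the same library total. Spp1, the gene of the αvβ3 ligand osteopontin, had 6674, 6152 and 6539 normalized counts in lipid-depleted TCM, 37861, 33445 and 36224 in TCM, and 2212, 2274 and 2173 in control, a rise with a log2 change of 4.01 (SE 0.05, limma adjusted p = 3.4e-14) in TCM. TCM stood above both other groups, and lipid-depleted TCM was below TCM by a log2 change of -2.47 (limma adjusted p = 1e-11). Npnt, the gene of the α8β1 ligand nephronectin, was counted with the other basement membrane genes and not in this list. It had 937, 867 and 888 normalized counts in lipid-depleted TCM, 798, 960.3 and 898 in TCM, and 6179, 6106 and 6209.6 in control. It fell in TCM by a log2 change of -2.80 (SE 0.07, limma adjusted p = 3.5e-12) and in lipid-depleted TCM by a log2 change of -2.78 (limma adjusted p = 5.6e-12) against control. Its lipid-depleted TCM and TCM libraries overlapped, which those of Itga8 did not. Tnc, the tenascin-C gene, averaged 41190.3 in lipid-depleted TCM, 75135 in TCM and 195837 in control and was lowest in lipid-depleted TCM, -0.86 (limma adjusted p = 6.3e-07) against TCM. Of the matricellular genes, Ccn2 averaged 9714 in lipid-depleted TCM, 4907 in TCM and 38106 in control, and Ccn3 averaged 11292 in lipid-depleted TCM, 2302 in TCM and 22799 in control. Both were lowest in TCM, with log2 changes in lipid-depleted TCM against TCM of 1.02 for Ccn2 and 2.29 for Ccn3. Icam1, a ligand of β2 integrins, rose in both treated groups, by a log2 change of 1.03 (limma adjusted p = 1.7e-08) in lipid-depleted TCM and 0.74 (limma adjusted p = 4.4e-07) in TCM.

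The dystroglycan complex and the enzymes that build its laminin-binding glycan were more evenly split. Of 25 tested of 27, 7 rose and 10 fell in TCM against control (median -0.01), though with the same library total 11 rose and 8 fell (median 0.15). In the other comparisons 8 rose and 4 fell in lipid-depleted TCM against TCM, and 9 rose and 9 fell in lipid-depleted TCM against control, or 12 and 8 with the same library total. Dmd and Utrn, the genes of dystrophin and utrophin, which link dystroglycan to actin, fell in TCM, Dmd with 1177 in lipid-depleted TCM, 748 in TCM and 2324 in control (-1.64 on the log2 scale) and Utrn with 4852 in lipid-depleted TCM, 4369.8 in TCM and 11039 in control (-1.34). Pomk, a kinase of the glycan, rose in both treated groups, with means of 1692 in lipid-depleted TCM, 1461 in TCM and 1151 in control. Other laminin receptors and hemidesmosome genes, 16 of 16 tested, counted 4 higher and 8 lower in TCM against control (median -0.27), or 6 and 7 with the same library total (median -0.11). They counted 4 higher and 6 lower in lipid-depleted TCM against TCM and 3 higher and 9 lower in lipid-depleted TCM against control. Sdc4, the syndecan-4 gene, rose in TCM by a log2 change of 0.57 (limma adjusted p = 0.00011) and was lower in lipid-depleted TCM than in TCM by a log2 change of -0.97 (limma adjusted p = 2.3e-06), with means of 1574 in lipid-depleted TCM, 3106 in TCM and 2081 in control. Bcam, the Lutheran receptor for laminin α5, averaged 316 in lipid-depleted TCM, 264 in TCM and 449 in control and fell in TCM by a log2 change of -0.77 (limma adjusted p = 3.8e-05), the opposite sign to Lama5.

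**Figure D5:**
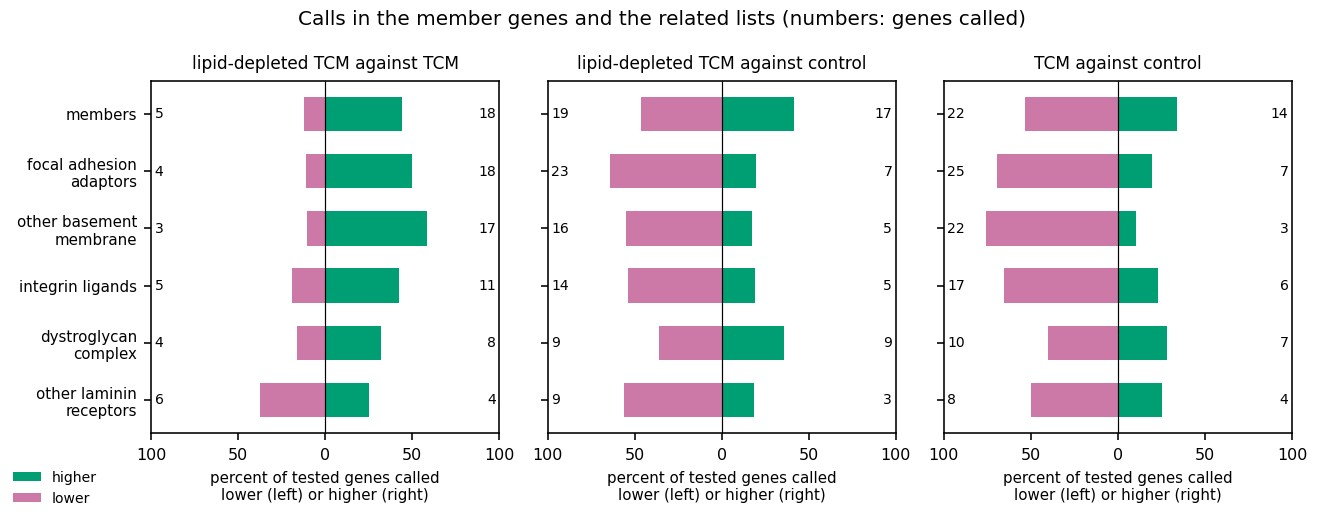
Share of tested genes called higher (right, green) or lower (left, pink) in the members and in the 5 related lists (horizontal axis, percent of the genes tested; numbers are genes called), for lipid-depleted TCM against TCM, lipid-depleted TCM against control, and TCM against control. Adaptors, other basement membrane genes and integrin ligands lie mostly to the left in the comparisons with control and mostly to the right in lipid-depleted TCM against TCM.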

How the data were processed

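RNA was sequenced from 9 fibroblast libraries, 3 per group. Per the labels' protocols, RNA was isolated with a Qiagen RNeasy kit and libraries were made with an Illumina TruSeq stranded kit. The tools named per the submitters' processing notes are STAR 2.7.9a, Trim Galore 0.6.6, DESeq2 and FastQC, with mm10 as the genome. Neither the counting tool and its use of strand nor the gene models are named there, so overlapping genes are uncertain. The deposited signal holds the authors' counts scaled by size factors: 100% of values came out as whole reads within a tolerance of 0.01, and the factor equals a median-of-ratios factor. Replicate pairs differed by more than counting noise in every group, so all 9 libraries were kept as separate; this does not show that they came from separate cultures.

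Names and coordinates come from GENCODE M21 (GRCm38), in which 55141 of 55401 identifiers were found without version and 54349 with it. Genes with at least 10 normalized counts in at least 3 libraries (16950) were tested on log2(value + 1) with limma 3.58.1 in R 4.3.3, with 3 group means, a variance trend and all 9 libraries, and Benjamini-Hochberg adjustment ran over these genes. A change was called at an adjusted p below 0.05. The fit was tested on data simulated with the same dispersion in every group. TCM replicates in fact differed more than the others, so no conclusion is drawn from that test. Levels between genes are per kilobase of merged exons. The members, the related lists and the marker lists of fibroblasts, keratinocytes, endothelial cells, leukocytes, melanocytes, pericytes and Schwann cells were chosen with earlier results of these data known. Every library's value is given for members called with a log2 change of at least 1 whose higher group averaged at least 50, and for Itgb1, Itgav, Itga5, Lamb1, Lamc1, Nid1, Nid2, Hspg2, Agrn and Dag1. From each related list, genes were taken from up to 2 with the largest rise and 2 with the largest fall per comparison; Itga4, Itgb2 and Itgb7 were given in full after their values were seen. The values of 1 member, which is kept in the counts, are not reported here. Promoter sequences are from RefSeq (GRCm38.p6). Alternatives were other pseudocounts (0.5 and 5), other filters, scaling to the same total, TMM, edgeR 4.0.16 and DESeq2 1.42.0 on the recovered reads, limma-voom, fits of the compared groups alone, a replicate block and leaving out each library.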

Additional observations from a re-analysis of the deposited data

How the results depend on the processing

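The number of members called was 31 to 37 in TCM against control, 22 to 23 in lipid-depleted TCM against TCM and 31 to 36 in lipid-depleted TCM against control over the alternatives that kept all libraries. When single libraries were left out it was 34 to 36 in TCM against control, 21 to 25 in lipid-depleted TCM against TCM and 33 to 36 in lipid-depleted TCM against control. With edgeR 36, 23 and 36 members were called in the same comparisons. Members past 2-fold in lipid-depleted TCM against control numbered 9 in place of 14 with a filter at 50 normalized counts, under which fewer members were tested. The dystroglycan list had 7 to 13 calls in lipid-depleted TCM against TCM when single libraries were left out, and 12 with all of them. Replicate numbers did not pair the libraries: correlations between same-numbered libraries ran from -0.025 to 0.027. With a replicate block 36, 23 and 35 members were called, and the loss was Itga4 in lipid-depleted TCM against control.

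Of 95 called member changes, 1 turned sign: Dag1 in TCM against control, 0.031 with the same library total. That scaling also moved called changes by over 1.5 times, to 0.46 for Itgb1bp1, 0.32 for Lama2, 0.32 for Lama4 and 0.37 for Lamc1 in TCM against control, and to 0.38 for Itgb5, 0.40 for Itga4 and 0.42 for Itgb3bp in lipid-depleted TCM against control. Other changes of sign concerned members without a call. With the same library total they were Itga3 in TCM against control (0.092), and Itga2b (0.13) and Itgb4 (0.14) in lipid-depleted TCM against control. For the last comparison TMM gave 0.022 for Itga2b and 0.028 for Itgb4, edgeR 0.0050 and 0.016, and DESeq2 0.0089 for Itgb4. DESeq2 gave 0.0023 for Itgb2 in lipid-depleted TCM against TCM. When single libraries were left out, values in TCM against control ran from -0.16 to 0.064 for Itga3 and -1.40 to 0.22 for Lama3. Those in lipid-depleted TCM against TCM ran from -0.16 to 0.043 for Itga7, -0.23 to 0.19 for Itgb2, -0.027 to 0.12 for Itgb3bp, -0.11 to 0.19 for Hspg2, -0.067 to 0.23 for Lamb3, and -0.072 to 0.050 for Itga5. In lipid-depleted TCM against control they ran from -0.15 to 0.16 for Itga2b and -0.20 to 0.095 for Itgb4. Calls in lipid-depleted TCM against TCM appeared for Itga2 without TCM 3 (-0.86), Itgad without TCM 1 (1.11) and Lama3 without lipid-depleted TCM 3 (-2.43). The cause of these shifts was not tested.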
